A study of Mus musculus with 20 samples.

Results

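The collagen genes of 10 mouse pluripotent stem cell lines are described here on Agilent expression arrays. Every probe whose gene name has the form of a collagen chain (Col, a type number, the letter a and a chain number) was taken, and each gene was read from its brightest probe. This gave 61 probes on 70 spots for 41 genes, of 36492 genes on the array: 11 fibrillar collagens, 6 chains of basement membrane collagen (type IV) and 24 others. Of the 61 probes, 58 matched a RefSeq transcript, and no symbol changed. Probes under an older name outside that form, Gm7455 (now Col6a5) and Emid2 (now Col26a1), were left out by the rule.

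The arrays compare 7 induced pluripotent stem cell (iPSC) lines of 3 quality grades with 3 embryonic stem cell (ESC) lines, each on 2 arrays. The grade poor was given to Nanog-GFP OSKM#2, to Oct4-GFP OSKM#2 and to KH2_OSKM. The grade good was given to BC_2 OSKM and to Nanog-GFP SNEL#3, and the grade high to Nanog-GFP SNEL#2 and to Oct4-GFP SNEL#1. The embryonic lines were KH2 ESCs, then Nanog-GFP ESCs, then Oct4-GFP ESCs. Values per line follow this order throughout. OSKM stands for Oct4, Sox2, Klf4 and Myc (4 lines), and SNEL for Sall4, Nanog, Esrrb and Lin28 (3 lines), the factors that reprogrammed the cells; Nanog-GFP and Oct4-GFP name reporter lines. Per the labels all lines grew in 2i medium, an inhibitor medium that holds mouse pluripotent cells in a naive state, without feeder cells and without treatment. The labels do not say how quality was graded, at which passage RNA was taken, or whether a line's 2 arrays hold RNA of separate cultures, so the line was the replicate.

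All levels are log2 signals over the 75th percentile of the array, so that 0 is that percentile and each step of 1 is a doubling. Levels are compared between lines for 1 gene, never between genes, since probes differ in brightness. Between 48.9% and 77.2% of probes were well above background on an array. KH2_OSKM stood apart: 77.2% of probes were above background on its first array and 58.2% on its second, and the correlation of its arrays was 0.952, where the other lines had 0.972 to 0.988. Results that rest on it are given with and without it. The 12 pluripotency markers all passed the filter, with mean levels of 5.23 to 5.47 in poor, 5.54 to 5.77 in good and 5.41 to 5.67 in high lines, against 5.40 to 5.80 in ESC lines.

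Collagens are secreted proteins whose chains wind into a triple helix built on the repeat Gly-X-Y, with a glycine at each turn. Types I, II, III, V and XI assemble into the fibrils of skin, bone, cartilage and vessels, type IV forms the sheet-like network of basement membranes, and the others coat fibrils, span membranes or form fine filaments. Pluripotent cells and early embryos lay down basement membrane, while collagen I and III are best known as products of mesenchymal cells such as fibroblasts.

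The Gly-X-Y repeat can be read directly in the probes of 2 members, the only ones of 41 in which every complete codon at glycine's place is GGN across the 60 bases. Both are shown because the probe itself then reports coding sequence of the helix, and the capitals mark the glycine codons. The Col15a1 probe lies at chr4:47283786-47283845 and the Col25a1 probe at chr3:130270497-130270556, both on the plus strand of mm9, the build of the array's coordinates.
Col15a1: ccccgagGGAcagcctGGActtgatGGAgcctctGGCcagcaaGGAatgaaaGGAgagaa
Col25a1: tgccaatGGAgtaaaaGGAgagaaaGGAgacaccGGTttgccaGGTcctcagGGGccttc

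Col1a2, Col3a1 and Col6a1, whose levels varied together over the lines, are shown with the 250 bases before their RefSeq start (GRCm38.p6, 5′ to 3′ along the gene). The windows are chr6:4505368-4505617 on the plus strand for Col1a2, chr1:45311288-45311537 on the plus strand for Col3a1 and chr10:76726045-76726294 on the minus strand for Col6a1. Capitals mark matches on either strand to CCAAT, to GGGCGG, the core of the GC box, and to TATAAA, none of which overlap here.
Col1a2: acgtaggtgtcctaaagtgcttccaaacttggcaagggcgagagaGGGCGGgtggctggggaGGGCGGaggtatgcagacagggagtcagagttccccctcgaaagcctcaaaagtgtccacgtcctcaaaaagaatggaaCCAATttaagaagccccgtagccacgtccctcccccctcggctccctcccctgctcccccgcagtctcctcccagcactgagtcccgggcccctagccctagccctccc
Col3a1: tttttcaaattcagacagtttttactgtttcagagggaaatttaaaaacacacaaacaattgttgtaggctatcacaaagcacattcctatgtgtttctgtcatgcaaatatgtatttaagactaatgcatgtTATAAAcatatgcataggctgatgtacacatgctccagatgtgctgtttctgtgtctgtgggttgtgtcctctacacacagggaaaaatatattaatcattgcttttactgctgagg
Col6a1: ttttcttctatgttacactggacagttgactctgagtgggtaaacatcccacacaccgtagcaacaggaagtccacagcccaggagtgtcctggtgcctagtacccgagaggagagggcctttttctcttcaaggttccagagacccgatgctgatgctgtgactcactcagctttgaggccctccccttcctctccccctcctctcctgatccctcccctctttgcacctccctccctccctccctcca
The Col1a2 window holds 1 CCAAT and 2 GGGCGG, the Col3a1 window 1 TATAAA, and the Col6a1 window none of these letters. Over all 32851 windows of the same length, 33.8% hold CCAAT, 32.7% GGGCGG and 12.4% TATAAA. Of the 36 windows found for 33 collagen genes, 13 hold CCAAT, 21 GGGCGG and 5 TATAAA. Col4a1 and Col4a2 are neighbours on chromosome 8 that point away from each other, with RefSeq starts 21 bases apart, so their windows overlap each other's transcripts and are not printed.

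Most collagens were detectable and few were detectable everywhere. A gene passed the filter when its probe was well above background on at least 4 of the 20 arrays: 33 collagens passed (9 fibrillar, 5 of type IV, 19 others), of 27139 genes in all. The 12 collagens above background on all arrays were 4 fibrillar genes (Col1a2, Col2a1, Col5a1, Col5a3), 3 of type IV (Col4a1, Col4a2, Col4a6) and 5 others (Col7a1, Col9a2, Col16a1, Col18a1, Col20a1). Col4a3, Col8a1 and Col19a1 were above background on no array. Col10a1, Col5a2, Col6a6 and Col28a1 were above it on 1 array, the first of KH2_OSKM, and Col24a1 on that array and 1 of Nanog-GFP OSKM#2. Without the first array of KH2_OSKM, 4 of these 5 genes were above background nowhere.

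By group, the fibrillar genes were above background in 71.2% of 66 array readings in poor lines, 50% of 44 in good lines and 65.9% of 44 in high lines, against 75.8% of 66 in ESC lines. The chains of type IV were above it in 77.8%, 62.5% and 66.7% of readings in poor, good and high lines, against 83.3% in ESC lines. The other collagens were above it in 66.7%, 53.1% and 56.2%, against 71.5%. Without the first array of KH2_OSKM, the shares in poor lines were 67.3% of 55 readings for fibrillar genes, 76.7% of 30 for type IV and 64.2% of 120 for the others. The share of all probes above background was 62.6% to 67.7% in poor lines, 61.2% and 50.1% in good lines and 57.3% and 58.8% in high lines, against 62.6% to 65.9% in ESC lines; its part in the collagen shares was not tested.

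**Figure D1:**
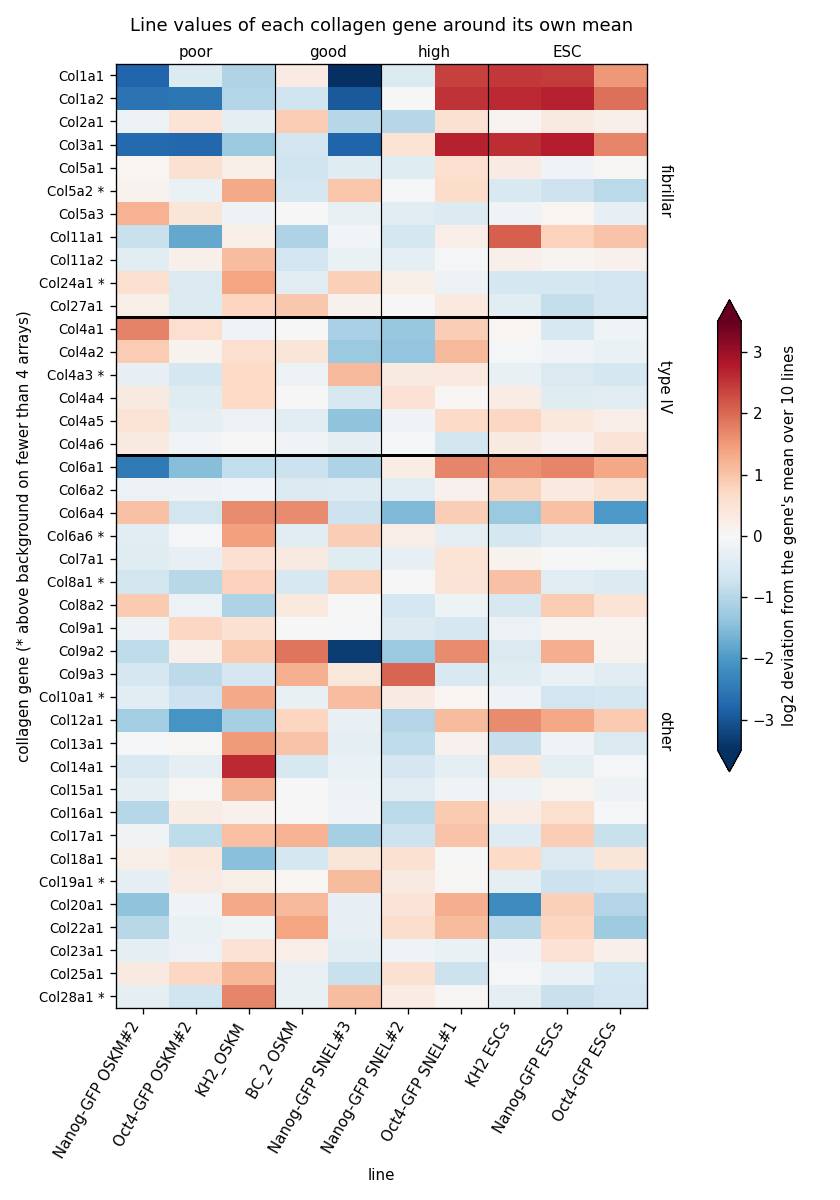
Each row is 1 of the 41 collagen genes and each column 1 of the 10 lines; colour gives the line's log2 level minus that gene's mean over the lines, and an asterisk marks genes above background on fewer than 4 arrays. Col1a1, Col1a2, Col3a1 and Col6a1 share a band of high values in the ESC lines and Oct4-GFP SNEL#1, which Col4a1 and Col4a2 do not show.

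Collagen I and III were high in the ESC lines and in 1 iPSC line. Col1a1 encodes the chain present in duplicate in each collagen I molecule, and Col1a2 its partner; the Col1a1 probe lies at chr11:94813115-94813174 and the Col1a2 probe at chr6:4490619-4490678 (mm9, plus strand). Col1a2 had levels of -3.54, -3.47 and -1.96 in the poor lines, -1.65 and -3.89 in the good lines and -0.93 and 1.59 in the high lines, against 1.66, 1.75 and 0.99 in the ESC lines. All poor and good lines lay below all ESC lines, Nanog-GFP SNEL#2 lay between, and Oct4-GFP SNEL#1 fell inside the ESC range. Arrays of a line differed by at most 0.53, so the neighbours Oct4-GFP SNEL#1, KH2 ESCs and Nanog-GFP ESCs, and likewise Nanog-GFP OSKM#2 and Oct4-GFP OSKM#2, were not separated beyond the array spread.

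Col1a1 had levels of -3.77, -1.48 and -2.04 in the poor lines, -0.71 and -5.27 in the good lines and -1.51 and 1.39 in the high lines, against 1.49, 1.45 and 0.54 in the ESC lines. Its range of 6.77 over the lines was the widest of the members above background on 10 or more arrays, and its lowest line, Nanog-GFP SNEL#3, was well above background on neither array. Col3a1, whose product forms the thin fibrils found beside collagen I (probe chr1:45405589-45405648, plus strand), had levels of -5.42, -5.45 and -4 in the poor lines, -3.33 and -5.49 in the good lines and -2.21 and 0.01 in the high lines, against -0.10, 0.06 and -0.97 in the ESC lines. Nanog-GFP SNEL#3 was above background on neither array for Col3a1 as well. The order of the lines was nearly that of Col1a2: over the 10 lines the correlation of the pair was 1 (Pearson r, rounded) with a Spearman rho of 0.98. Col1a1 followed Col1a2 with r 0.92 and rho 0.93. These correlations describe lines that share arrays and cell handling and carry no test.

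Col6a1 is no fibrillar gene but followed the same pattern. It encodes a chain of collagen VI, which forms beaded filaments around cells (probe chr10:76171538-76171597, minus strand). Its levels were -5.74, -4.76 and -4.14 in the poor lines, -4.01 and -4.34 in the good lines and -3.01 and -1.55 in the high lines, against -1.66, -1.55 and -1.92 in the ESC lines. In Nanog-GFP SNEL#3 it was above background on neither array. Its correlation with Col1a2 was 0.96. Col6a2, its partner chain, varied less, with levels of -4.37, -4.35 and -4.27 in poor, -4.66 and -4.61 in good and -4.54 and -4.02 in high lines, against -3.39, -3.82 and -3.63 in ESC lines. By line means, all 7 iPSC lines were below all 3 ESC lines for Col6a2. A line's arrays differed by up to 0.99, however, and single arrays overlapped. The second array of Oct4-GFP SNEL#1 was at -3.71, against -3.85 on the first array of Nanog-GFP ESCs.

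**Figure D2:**
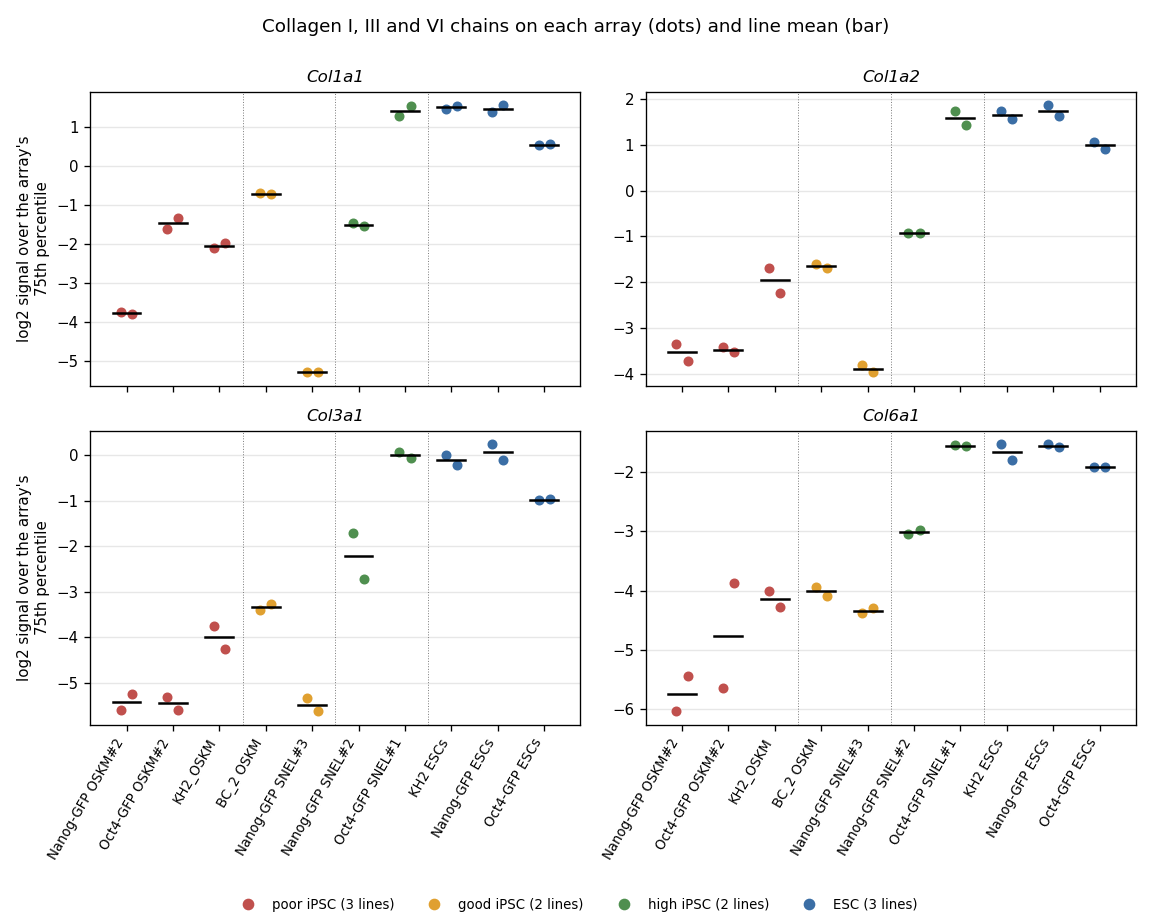
Dots are the 2 arrays of each line and bars their mean, in log2 signal over the array's 75th percentile, for Col1a1, Col1a2, Col3a1 and Col6a1; poor, good, high and ESC lines run from left to right. Oct4-GFP SNEL#1 lies at 1.39, 1.59, 0.01 and -1.55 for these genes, among or next to the ESC lines, and the poor and good lines lie below them.

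The dim fibrillar gene Col11a1, a chain of the fibrils of cartilage, was above background on 0 of 6 arrays of poor lines, 0 of 4 of good and 1 of 4 of high lines, against 5 of 6 of ESC lines. Col12a1, a fibril-associated collagen (FACIT), was above it on 0 of 6, 1 of 4 and 1 of 4 arrays, against 6 of 6. Where a probe was above background on no array of 1 group, only a bound can be given, from the lowest signal well above background on each array: Col11a1 was at least 1.51-fold and Col12a1 at least 1.92-fold lower in poor than in ESC lines. Both genes passed the filter only through the ESC lines, so these bounds are no independent support.

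The remaining fibrillar genes followed collagen I less closely. Col5a1, the collagen V chain that starts fibril assembly, had levels of 0.17, 0.65 and 0.32 in poor, -0.59 and -0.31 in good and -0.32 and 0.69 in high lines, against 0.40, -0.02 and 0.15 in ESC lines. Col2a1, the main cartilage collagen, had -1.22, -0.53 and -1.35 in poor, -0.13 and -2.01 in good and -2.01 and -0.49 in high lines, against -0.92, -0.70 and -0.84 in ESC lines. For both genes the iPSC lines lay on either side of the ESC lines. Over the lines, Col2a1 had a correlation of 0.63 with Col1a1 and 0.36 with Col1a2, and Col5a1 of 0.35 and 0.22. Col5a3 was highest in Nanog-GFP OSKM#2, at 0.01, and ran from -1.67 to -0.79 in the other iPSC lines, against -1.49 to -1.12 in ESC lines. Col27a1 averaged -4.58 ± 0.62 (SD, n = 3) in poor lines, -4.19 ± 0.56 in good and -4.55 ± 0.24 in high lines (n = 2 each), against -5.35 ± 0.21 (n = 3) in ESC lines. Col11a2 was dim and ran from -6.42 to -4.68. Col5a2, the partner of Col5a1 in collagen V, had -7.34, -7.71 and -6.15 in poor, -8.05 and -6.51 in good and -7.51 and -6.82 in high lines, against -8.01, -8.21 and -8.43 in ESC lines. Since it was above background on 1 array, no difference can be read from these values.

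Collagen IV behaved otherwise. Col4a1 and Col4a2 encode the chains of the basement membrane network found in nearly every tissue; their probes lie at chr8:11199009-11199068 (minus strand) and chr8:11448840-11448899 (plus strand). Col4a1 had levels of 0.53, -0.61 and -1.32 in the poor lines, -1.18 and -2.33 in the good lines and -2.54 and -0.34 in the high lines, against -1.14, -1.76 and -1.35 in the ESC lines. Col4a2 had levels of -0.56, -1.33 and -0.88 in the poor lines, -1.02 and -2.74 in the good lines and -2.83 and -0.32 in the high lines, against -1.52, -1.58 and -1.68 in the ESC lines. For both genes Nanog-GFP SNEL#3 and Nanog-GFP SNEL#2 lay below all ESC lines, and Nanog-GFP OSKM#2, Oct4-GFP OSKM#2 and Oct4-GFP SNEL#1 above them. KH2_OSKM and BC_2 OSKM also lay above all ESC lines for Col4a2, and within their range for Col4a1. The correlation of Col4a1 with Col1a1 over the lines was 0.06, against 0.87 with Col4a2.

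The other chains of type IV varied less or were too dim to be read. Col4a5 and Col4a6, neighbours on the X chromosome that encode chains of more specialised basement membranes, had ranges of 2.11 and 1.1 over the lines. Col4a5 had -4.53, -5.35 and -5.21 in poor, -5.37 and -6.40 in good and -5.12 and -4.33 in high lines, against -4.29, -4.64 and -4.77 in ESC lines. It was high in the ESC lines, Oct4-GFP SNEL#1 and Nanog-GFP OSKM#2, with a correlation of 0.73 with Col1a1 and 0.70 with Col1a2. Col4a6 had -2.21, -2.62 and -2.51 in poor, -2.64 and -2.85 in good and -2.58 and -3.17 in high lines, against -2.20, -2.38 and -2.07 in ESC lines. The arrays of a line differed by up to 1.83 for Col4a5 and 1.84 for Col4a6, so most of these differences are within the array spread. Col4a4 had -4.52, -5.26 and -4.13 in poor, -4.84 and -5.38 in good and -4.32 and -4.80 in high lines, against -4.58, -5.25 and -5.24 in ESC lines, and the groups overlapped. Col4a3, above background nowhere, had values of -8.14, -8.47 and -7.15 in poor, -8.06 and -6.71 in good and -7.53 and -7.52 in high lines, against -8.11, -8.37 and -8.48 in ESC lines, which have no order.

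**Figure D3:**
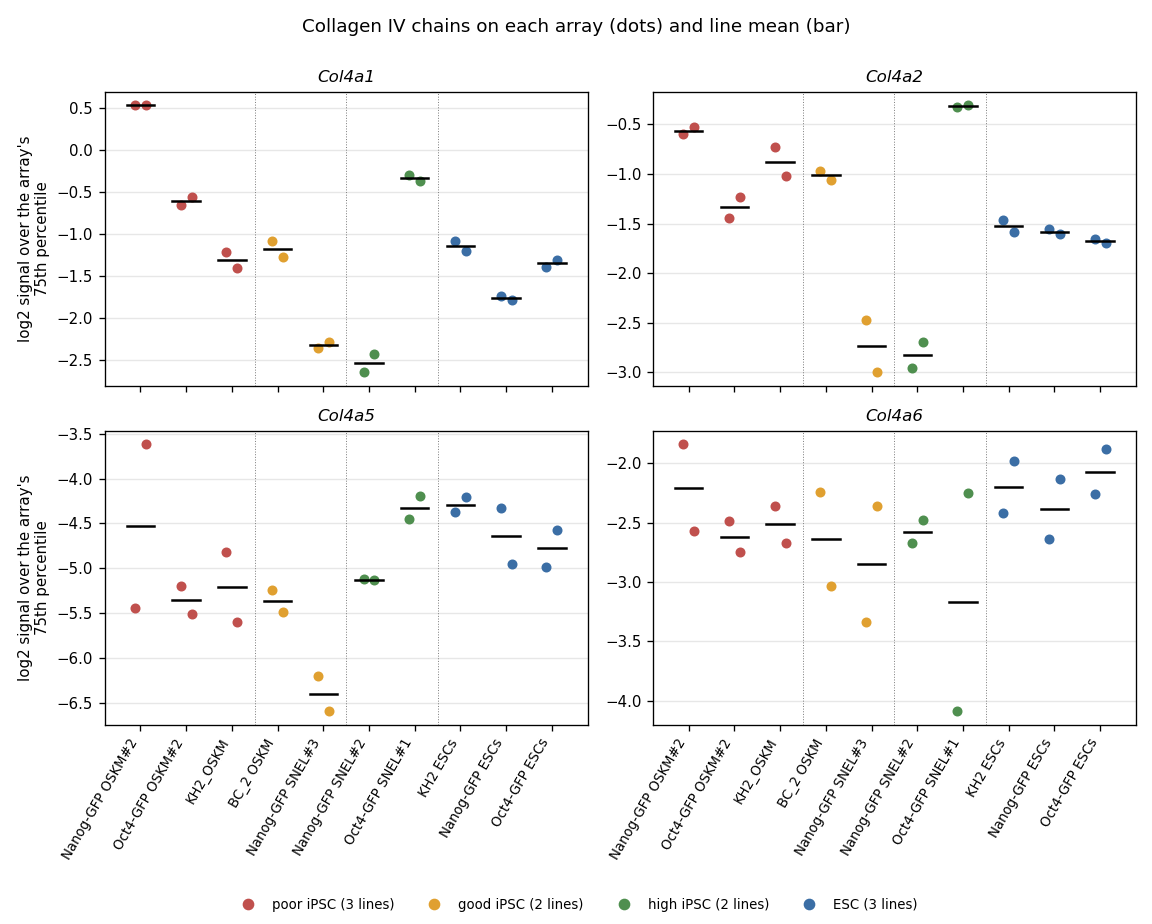
Dots are the 2 arrays of each line and bars their mean, in log2 signal over the array's 75th percentile, for Col4a1, Col4a2, Col4a5 and Col4a6. Col4a1 and Col4a2 are lowest in Nanog-GFP SNEL#3 and Nanog-GFP SNEL#2, between -2.83 and -2.33, and the ESC lines lie between -1.76 and -1.14.

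Among the other collagens, Col9a2 varied most. It encodes a FACIT chain of cartilage fibrils and had levels of 0.34, 1.41 and 2.14 in poor, 3.1 and -2.09 in good and -0.07 and 2.88 in high lines, against 0.72, 2.51 and 1.34 in ESC lines. Its arrays agreed within 0.26 in every line, while the 2 good lines were the highest and the lowest of all 10. Col20a1, another FACIT gene, had -3.68, -2.40 and -0.96 in poor, -1.15 and -2.57 in good and -1.84 and -1 in high lines, against -4.49, -1.44 and -3.30 in ESC lines, so the ESC lines differed among themselves by most of the whole range.

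Col18a1, whose product is a basement membrane collagen that releases endostatin, had levels of 3.75, 3.92 and 2.10 in poor, 2.93 and 3.98 in good and 4.08 and 3.53 in high lines, against 4.24, 3.05 and 3.99 in ESC lines. The groups overlapped, and the lowest line was KH2_OSKM. Col14a1, a FACIT gene, had -5.21, -4.98 and -2.08 in poor, -5.25 and -4.92 in good and -5.26 and -4.99 in high lines, against -4.30, -5.03 and -4.76 in ESC lines, with KH2_OSKM far above the rest. Col7a1, the anchoring fibril collagen of skin, stayed between -1.60 and -0.63 in iPSC lines, against -1.25 to -1.04 in ESC lines. The transmembrane collagens Col13a1, Col17a1, Col23a1 and Col25a1 had ranges of 0.89 to 2.39, and Col9a1, Col15a1, Col16a1, Col22a1, Col6a4 and Col8a2 of 1.29 to 3.68.

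Across all lines, limma's test with Benjamini-Hochberg adjustment over 27139 genes called 0 collagens in the comparison of iPSC with ESC lines (0% of all genes tested were called). At an unadjusted p under 0.05, 9 of the 33 members tested stood out, where 9.37% of all genes did. Col1a2 averaged -1.98 ± 1.93 (SD, n = 7) in iPSC lines, against 1.46 ± 0.41 (n = 3) in ESC lines. It differed by -3.44 ± 0.68 (SE), or 10.9-fold lower, with a limma adjusted p of 0.229. Col3a1 differed by -3.36 ± 0.64, Col6a1 by -2.23 ± 0.40 and Col6a2 by -0.79 ± 0.15 (all limma adjusted p 0.229), and Col1a1 by -3.07 ± 1.04 (limma adjusted p 0.381). Col4a1 differed by 0.31 ± 0.56 and Col4a2 by 0.21 ± 0.55 (limma adjusted p 0.968 and 0.98). Of the 9 members, Col27a1, a fibrillar chain, was the 1 on the higher side, by 0.90 ± 0.29 (limma adjusted p 0.36); Col11a1, Col12a1 and Col4a6 were the others on the lower side.

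The lines of the 2 groups did not overlap for Col6a2 and Col11a1, whose line means were lower in all 7 iPSC lines: 2 of 33 members, against 3.65% of all genes. Col11a1 was above background on 1 of 14 arrays of iPSC lines, against 5 of 6 of ESC lines, and Col12a1 on 2 of 14, against 6 of 6. Both passed the filter only through the ESC lines, which favours lower values in iPSC lines. Their results here are therefore no independent support. No member was higher without overlap, against 0.66%. An exact two-sided permutation test over the 120 ways to pick 3 of 10 lines, unadjusted over the 41 genes computed, gave 0.00833 for Col6a2 and Col11a1, the smallest p it allows, 0.025 for Col1a2 and for Col27a1, 0.0333 for Col3a1, 0.0417 for Col12a1, and 0.05 for Col1a1, Col6a1 and Col4a6. Genes that did not pass the filter reached small values too. Col19a1, above background on no array, had an exact p of 0.00833, and Col5a2 and Col24a1 had an exact p of 0.0417. These genes were higher in iPSC lines on signals near background, so a small exact p alone does not show a readable difference. Of the 33 members past the filter, 6 had an exact p under 0.05. The exact test was run for collagens alone, so no share of all genes stands beside this count. The groups were spread over 3 slides, with 7 iPSC lines and 1 ESC line on slide 1, 6 and 2 on slide 2, and 1 iPSC line (Oct4-GFP SNEL#1) and 3 ESC lines on slide 3. Col1a2 differed by -3.61 within slide 1 and -4.15 within slide 2, Col3a1 by -3.59 and -4.08, Col1a1 by -3.41 and -3.38, and Col6a1 by -2.56 and -2.44. Within slide 3, where Oct4-GFP SNEL#1 alone stands for the iPSC lines, the differences had the opposite sign, at 0.07, 0.37, 0.32 and 0.20 for these genes. The other array of that line, on slide 1, had a Col1a2 level of 1.73, against 1.74 on the array of KH2 ESCs there. Over all slides and without KH2_OSKM, Col1a2, Col3a1, Col1a1 and Col6a1 differed by -3.45, -3.31, -3.05 and -2.19. In bulk RNA, fewer cells that express a gene and less RNA per cell cannot be told apart.

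When the 20 arrays were fitted with the line as a random block, in place of averaging them, Col1a2 and Col3a1 passed the test in the same comparison (limma adjusted p 0.0101 and 0.0112). With the slide as a block as well, Col1a2 still did (adjusted p 0.0317) and Col3a1 did not (adjusted p 0.0659). That fit has more degrees of freedom than the line averages.

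Poor lines were then set against ESC lines. By limma 0 of 33 members passed (0% of genes), and 8 had an unadjusted p under 0.05 (9.74% of genes). Lines were lower without overlap for 8 members (11.2% of genes) and higher for 3 (6.69% of genes). The lower ones include Col11a1 and Col12a1, which also count among the members with an unadjusted p under 0.05. Both passed the filter only through the ESC lines, so they are no independent support for either count. Col9a3, also lower, was above background on 0 of 6 arrays of poor lines, against 3 of 6 of ESC lines. The largest of the lower ones were Col3a1, at -4.62 ± 0.76 (SE) or 24.6-fold lower, Col1a2, at -4.45 ± 0.80 or 21.9-fold lower, and Col1a1, at -3.59 ± 1.23, with limma adjusted p of 0.192, 0.192 and 0.383. Col6a1 differed by -3.17 ± 0.47 (limma adjusted p 0.192). The 3 higher genes were Col25a1 (1.05 ± 0.37), Col13a1 (0.95 ± 0.52) and Col4a2 (0.67 ± 0.65), with limma adjusted p of 0.394, 0.65 and 0.873. A line's arrays differed by up to 2.28 for Col25a1 and 3.56 for Col13a1, more than these differences, and by up to 0.54 for Col4a2. Without KH2_OSKM, Col3a1 was at -5.10, Col1a2 at -4.97, Col25a1 at 0.83 and Col13a1 at 0.45.

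Good lines were next set against ESC lines. By limma 0 members passed (0% of genes) and 8 had an unadjusted p under 0.05 (6.17% of genes). Lines were lower without overlap for 11 members (14.1% of genes) and higher for 2 (6.74% of genes). Col1a2 differed by -4.24 ± 0.90 (SE), Col1a1 by -4.15 ± 1.38 and Col3a1 by -4.07 ± 0.85, with limma adjusted p of 0.557, 0.684 and 0.557. The 2 good lines were far apart: without Nanog-GFP SNEL#3 the differences were -3.12, -1.87 and -3 for these genes, and without BC_2 OSKM they were -5.36, -6.44 and -5.15. The last 3 values rest on Nanog-GFP SNEL#3 alone. In that line Col1a1 and Col3a1 were above background on neither array, so the sizes -6.44 and -5.15 rest on signals near background. Col27a1 was 1.17 ± 0.38 and Col9a3, a FACIT chain, 1.16 ± 0.64 higher (limma adjusted p 0.671 and 0.952). The other members lower without overlap were Col4a5, Col4a6, Col5a1, Col6a1, Col6a2, Col11a1, Col11a2 and Col12a1, among them 2 chains of type IV. Col11a1 and Col11a2 were above background on 0 of 4 arrays of good lines and Col12a1 on 1 of 4. Since Col11a1 and Col12a1 passed the filter only through the ESC lines, they are no independent support for this count.

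High lines, set against ESC lines, had a wide spread between the 2 lines. By limma 0 members passed (0% of genes) and 3 had an unadjusted p under 0.05 (5.86% of genes). Col1a2 differed by -1.13 ± 0.90 (SE), Col1a1 by -1.22 ± 1.38 and Col3a1 by -0.76 ± 0.85, all with overlap. Lines were lower without overlap for 7 members (15.3% of genes), among them Col6a2 (-0.67 ± 0.20) and Col4a6 (-0.66 ± 0.23), both with a limma adjusted p of 0.828. Col11a1 differed by -1.50 ± 0.64 (limma adjusted p 0.848), a value that rests on signals near background, since its probe was above background on 1 of 4 arrays of high lines, against 5 of 6 of ESC lines. This gene passed the filter only through the ESC lines, so it is no independent support. Lines were higher for 1 member (5.68% of genes), Col27a1, by 0.81 ± 0.38 (limma adjusted p 0.85). All 3 grades were set against the same ESC lines, so their differences share those values.

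**Figure D4:**
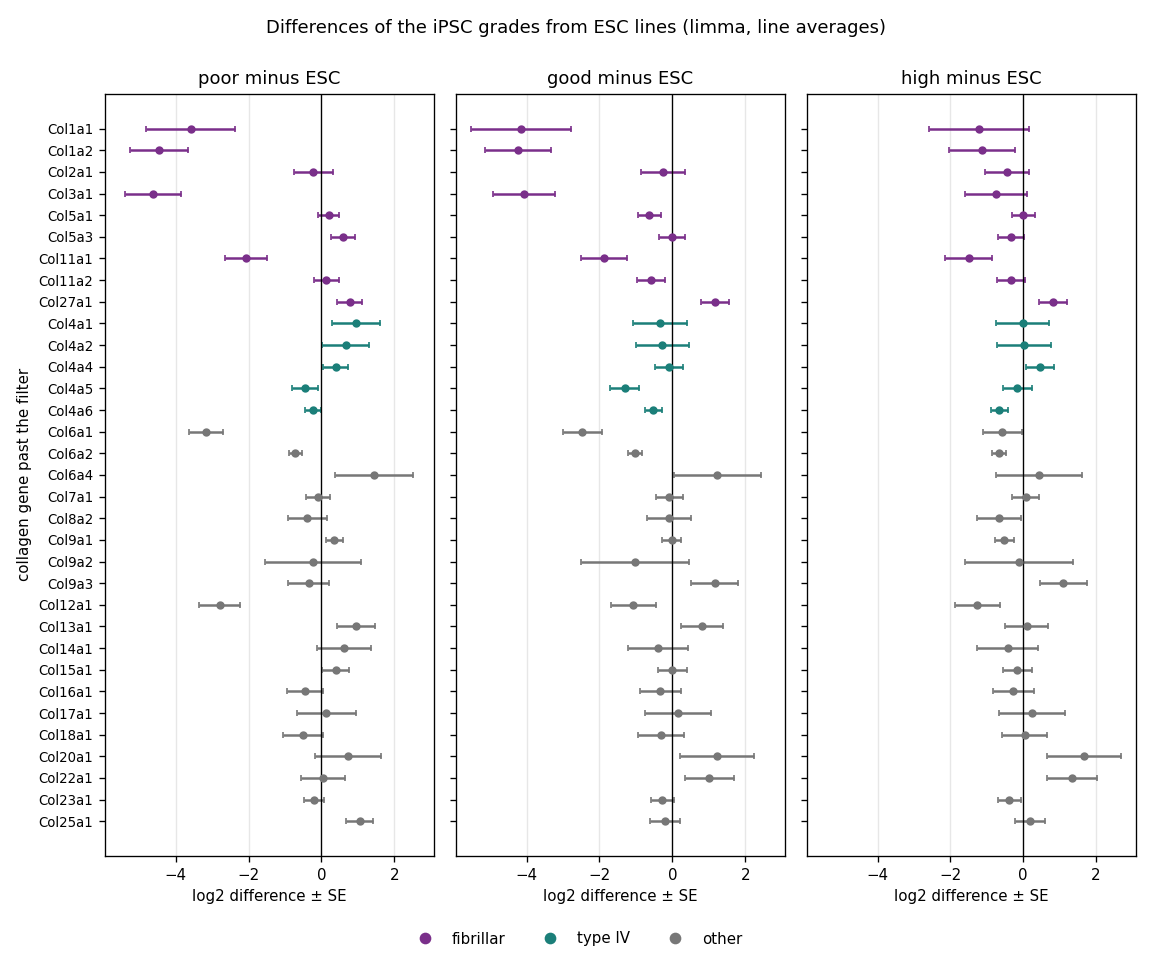
Points are the differences of the poor, good and high lines from the ESC lines on the log2 scale for the 33 collagens past the filter, with bars of 1 SE from limma. Col1a1, Col1a2, Col3a1 and Col6a1 lie between -4.62 and -2.47 in the poor and good panels and between -1.22 and -0.57 in the high panel, while Col4a1 and Col4a2 lie between -0.33 and 0.95.

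Among iPSC lines, the good and high lines together were set against the poor lines. By limma 0 members passed (0% of genes) and 8 had an unadjusted p under 0.05 (5.15% of genes). Col3a1 averaged -2.76 in good and high lines and -4.96 in poor lines, a difference of 2.20 ± 0.71 (SE), Col1a2 differed by 1.77 ± 0.75 and Col6a1 by 1.65 ± 0.44, all with overlap and a limma adjusted p of 0.929. On the lower side, also with overlap, Col25a1 differed by -1.06 ± 0.35, Col5a3 by -0.76 ± 0.30 and Col9a1 by -0.62 ± 0.22 (limma adjusted p 0.929 each). No member was lower without overlap (3.23% of genes), and 2 were higher (2.65% of genes): Col12a1 and Col9a3. Col12a1 was above background on 2 of 8 arrays of good and high lines and on 0 of 6 of poor lines, too dim for a fold to be given. Col9a3 was above background on 5 of 8 arrays of good and high lines and on 0 of 6 of poor lines, at least 1.9-fold higher, and both genes had a limma adjusted p of 0.929. Col9a3 passed the filter only through the good and high lines, which favours higher values there. Its result here is therefore no independent support.

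By reprogramming factors, SNEL lines were set against OSKM lines. By limma 0 of 33 members passed, where 2 of 27139 genes did (0.00737%), Fgf22 and Grem1, and 4 members had an unadjusted p under 0.05 (9.4% of genes). Col5a3 was lower without overlap, the 1 such member (3.95% of genes), by -0.75 ± 0.30 (SE) and with a limma adjusted p of 0.517; none was higher (3.54% of genes). Col6a1 was 1.70 ± 0.62 higher, Col4a1 differed by -1.09 and Col4a2 by -1.01, with limma adjusted p of 0.512, 0.58 and 0.574. Without Oct4-GFP SNEL#1, Col4a2 differed by -1.83 and passed (limma adjusted p 0.0117), 1 of 344 genes that then did.

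The classes were also summarised as a whole. Over all 41 genes, filtered or not, the median difference of fibrillar genes was 0.14 in poor, -0.59 in good and -0.33 in high lines against ESC lines, that of type IV genes 0.39, -0.31 and 0, and that of the others 0.09, -0.01 and 0.08. The medians of all 36492 genes were 0.05, 0.05 and 0.03. The spread of the fibrillar median between lines was 0.33. The 11 fibrillar genes include Col5a2 and Col24a1, which did not pass the filter. Their differences in poor lines, 1.15 and 1.12, rest on signals near background. Among the 9 fibrillar genes past the filter, the middle difference in poor against ESC lines was -0.22 (Col2a1). The positive sign in poor lines thus rests on the unfiltered genes. In good and high lines the middle difference was -0.63 (Col5a1) and -0.44 (Col2a1). Over all 11 genes the sign was not stable between lines either. The fibrillar median in poor against ESC lines was -0.06 without KH2_OSKM and -0.24 without its first array. In high against ESC lines it was 0.33 without Nanog-GFP SNEL#2.

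Genes that make and modify collagen were listed separately. Of 33 such genes 30 passed the filter, and 0 passed limma's adjusted test in any of the 6 comparisons, with median differences of 0.06, -0.03 and -0.03 in poor, good and high lines against ESC lines. Lox, the enzyme that cross-links collagen fibres, had levels of -8.08, -8.41 and -5.59 in poor, -5.58 and -6.67 in good and -5.57 and -2.82 in high lines, against -3.15, -2.74 and -3.60 in ESC lines, and was above background on 10 of 20 arrays. Serpinh1, the collagen chaperone of the endoplasmic reticulum, ran from 0.75 to 2.93 in iPSC lines, against 1.79 to 2.18 in ESC lines. P4hb and Ppib, which serve folding of many secreted proteins, stayed within 4.26 to 4.59 and 5.18 to 5.56 in iPSC lines, against 4.20 to 4.46 and 5.14 to 5.31 in ESC lines.

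Of 10 collagen receptor genes 8 passed the filter, of 14 genes for collagen breakdown 11, and of 16 other basement membrane genes all 16, and 0 passed limma's adjusted test in any comparison. The other basement membrane genes had medians of 0.15, 0.29 and 0.23 in poor, good and high lines against ESC lines. Their ranges over the lines were 0.55 to 3.69 with a median of 1.34, and 14 of the 16 were narrower than those of Col4a1 and of Col4a2. Lamc1, the common laminin chain, had the narrowest, at 5.48 to 6.03 in iPSC lines, against 5.65 to 5.94 in ESC lines. Nid1, the laminin linker nidogen, ran from 3.87 to 5.62 in iPSC lines, against 3.87 to 4.71 in ESC lines, and the dim laminin chain gene Lamc3 had the widest range. Hspg2, the perlecan gene, was highest in Nanog-GFP SNEL#2 and Nanog-GFP SNEL#3, at 4.23 and 4.20, the lines in which Col4a1 and Col4a2 were lowest.

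Markers of other cell types were read beside the collagens. Of 18 fibroblast markers 16 passed the filter, and their mean level was -3.46 to -2.84 in poor, -3.59 to -3.25 in good and -3.61 to -2.22 in high lines, against -2.75 to -2.33 in ESC lines; its correlation with Col1a2 was 0.85 over 10 lines. Their summed signal, which Fn1 and Vim fill, was 144 to 164, 201 to 204 and 165 to 227 in those groups, against 172 to 183. By limma 0 of the 16 passed in iPSC against ESC lines (0% of genes). An unadjusted limma p under 0.05 was found for 6 of them, all lower, where 9.37% of all genes had one. Lines were lower without overlap for 1, where 3.65% of all genes were. Dcn, Postn, Lum and Prrx1, singled out after their values were seen, were at -3.33, -3.81, -5.65 and -5.82 in Oct4-GFP SNEL#1, against -3.97 to -3.12, -4.21 to -3.09, -6.06 to -5.14 and -5.61 to -4.75 in ESC lines. Other markers had another order: Mfap5 was highest in Nanog-GFP OSKM#2 (0.74, against -1.37 to -0.46 in ESC lines), Pdgfrb was highest in KH2_OSKM (0.40, against -2.79 to -1.26), and Cd34, Pdgfra, Thy1 and Twist1 overlapped between iPSC and ESC lines. Dpt was above background on 1 of 20 arrays. Of the 7 contractile markers, all past the filter, the mean level was -3.56 to -3.15 in poor, -4.09 to -3.21 in good and -3.51 to -2.34 in high lines, against -2.52 to -1.51 in ESC lines. The part of such cells in the collagen differences was not tested.

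Searched among 24649 genes, those most like Col1a2 over the 10 lines were Dcn (r 0.989), Gm7867 (0.975), Gm8748 (0.974), Gm14231 (0.973), Mgp (0.972), Rpl9-ps3 (0.971), LOC677113 (0.966) and Cavin2 (0.966). Dcn encodes decorin, a proteoglycan that binds collagen fibrils. Those most like Col4a1 were Hddc2 (0.962), a probe named by its position on chromosome 10, Amph (0.936), Asic1 (0.936), D630023F18Rik (0.936), Catsperz (0.926), Stox2 (0.926) and Tmem41a (0.925). These likenesses carry no test.

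For type IV, the mean of 12 primitive endoderm markers, all past the filter, was -3.77 to -3.26 in poor, -4.27 to -3.82 in good and -4.02 to -3.35 in high lines, against -3.92 to -3.51 in ESC lines; primitive endoderm is the embryonic layer best known for collagen IV. Its correlation over 10 lines was 0.74 with Col4a2 and 0.49 with Col4a1, but -0.15 with Col4a6, and it was 0.75 with Col9a2, 0.69 with Col5a1 and 0.64 with Col7a1, which are not of type IV. Both genes lie on chromosome 8, where the median deviation of 1453 genes from their mean over lines was 0.21 in Nanog-GFP OSKM#2, the line highest for Col4a1, and -0.07 to 0.12 in the other lines. Among the 166 genes within 10 Mb of Col4a1 it was 0.27 in that line and 0.20 in KH2_OSKM, where Col4a1 was not high, and -0.16 to 0.09 in the other lines, with the lowest in Oct4-GFP SNEL#1, which was high for both genes. The part of either in the levels of Col4a1 and Col4a2 was not tested.

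**Figure D5:**
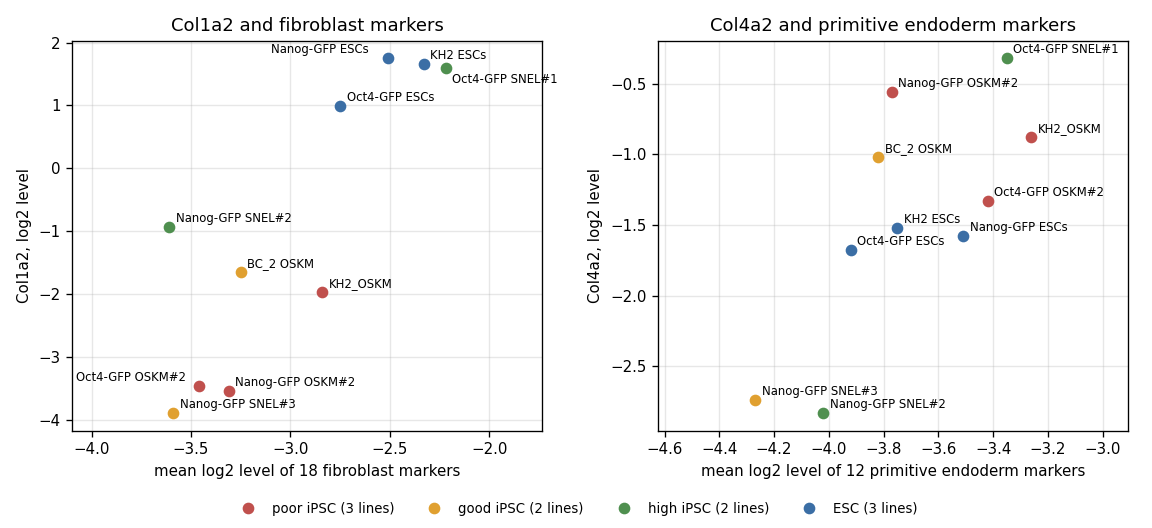
Each point is 1 line: Col1a2 against the mean log2 level of 18 fibroblast markers on the left, and Col4a2 against the mean of 12 primitive endoderm markers on the right. Oct4-GFP SNEL#1 stands together with the 3 ESC lines at the top right of the first panel, with Col1a2 between 0.99 and 1.75.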

How the data were processed

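RNA of 10 mouse lines was hybridised to 20 one-colour (Cy3) Agilent arrays of design 028005, on 3 slides of 8, 8 and 4 arrays. Per the file headers, Feature Extraction 10.1.1.1 made the deposited scanner files, whose processed signal is an intensity already corrected for background by the authors' scanner software, and probe coordinates are those of mm9. The submitters' processing notes name limma without a version. The authors' deposited value table holds log2 values and served as an alternative; its columns have medians of 6.4436 to 6.4549, its ranks follow the scanner's mean signal (lowest Spearman correlation 0.9984), and no centring of genes was seen.

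Of 62976 spots, 59305 were not controls, and averaging the repeated spots of 432 probes left 55681 probes. Flagged spots, which touched 563 probes, were set to missing; 0 spots were saturated. The log2 processed signal was scaled by each array's 75th percentile (a signal of 587 to 1076). Each gene was read from its brightest probe, the filter asked for a signal well above background on 4 or more of the 20 arrays, and a line's 2 arrays were averaged. Limma 3.58.1 in R 4.3.3, with Benjamini-Hochberg adjustment over all genes and a threshold of 0.05, fitted 1 model with poor, good, high and ESC lines and 1 with SNEL, OSKM and ESC lines, from which 6 comparisons were read. The fit was tested on simulated data. Python 3.11.15, with numpy 2.4.6, pandas 2.3.3 and matplotlib 3.10.9, read the files and drew the figures. The number of arrays limits the precision, and p-values measure the spread between lines.

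Background correction, normalization, the value table, the filter, the choice of probe, the slide, the replicate number, the start of the line name and leaving out each line were varied. The collagens, lists and tests were chosen with earlier results of these data known. Values are given in every line for Col1a1, Col1a2, Col3a1, Col5a1, Col5a2, the type IV chains, Col6a1, Col6a2, Col18a1 and the 4 widest-ranging members of each class above background on at least 10 arrays. For each comparison up to 3 members on each side with the largest differences and no overlap of lines are named, and 8 genes most like Col1a2 and Col4a1. Exon and UTR annotation of the probes was not used here. Promoter sequences are RefSeq's on GRCm38.p6.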

Additional observations from a re-analysis of the deposited data

Results flagged for a closer look

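In KH2_OSKM, Col14a1 was at -2.08, far above the next highest line, which had -4.92 among the 7 iPSC lines and -4.98 among the 4 OSKM lines. Col15a1 was at -4.15 in the same line, against -5.31 in the next highest of the 7 iPSC lines. The 2 arrays of KH2_OSKM had -2.35 and -1.80 for Col14a1, but -3.28 and -5.02 for Col15a1. The first array of BC_2 OSKM had -4.90 for Col15a1. The high Col15a1 value thus rests on the first array of KH2_OSKM. In all, 56 groups of line values were examined, and chance flags about 1 in 20 such groups. KH2_OSKM is also the line whose arrays agreed least (correlation 0.952); its part in these values was not tested.

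Of 28 collagens above background on 10 or more arrays, 7 had SNEL minus OSKM differences of opposite sign in the lines named Nanog-GFP and those named Oct4-GFP. Genes whose single arrays overlapped on either side are not counted. For Col2a1 and Col5a1, the sign in Oct4-GFP lines cannot be read beyond the array spread. The nearest Col2a1 arrays of Oct4-GFP SNEL#1 and Oct4-GFP OSKM#2 both had -0.52 when rounded. Each side rests on 1 OSKM line and 2 SNEL lines (Nanog-GFP) or 1 SNEL line (Oct4-GFP), and the difference between them was not tested. No such count over all genes is given, so whether 7 of 28 is unusual cannot be told. Col4a1 differed by -2.96 in Nanog-GFP lines and 0.28 in Oct4-GFP lines, and its neighbour Col4a2 by -2.22 and 1.02. Col9a2 differed by -1.42 and 1.47, and Col17a1, a collagen of epithelial attachment, by -0.84 and 1.88. Col18a1 differed by 0.28 and -0.40, Col2a1 by -0.79 and 0.04, and Col5a1 by -0.49 and 0.04. A line's arrays differed by up to 0.16 for Col2a1 and 0.37 for Col5a1. Their 0.04 in Oct4-GFP lines is thus within the array spread, and no direction can be read from it.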

How the results depend on the processing

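With 23 alternatives each, 0 collagens passed limma's test in high against ESC lines and in good and high against poor lines under any of them. Calls appeared almost only where all 20 arrays were fitted with a random block for the line; these fits have more degrees of freedom than line averages. In iPSC against ESC lines they numbered 2 of 22 genes called (1 of 4 with the slide as a block, 2 of 19 with the replicate block). In poor against ESC lines they numbered 3 of 40 (2 of 11 and 2 of 26), and in good against ESC lines 2 of 10 (0 of 3 and 1 of 5). The replicate block, the number of the array within a line, gave Col1a2 in iPSC against ESC lines an adjusted p of 0.0102; arrays of different lines share only a number. Leaving out each line in turn gave 0 to 1 calls in SNEL against OSKM lines, the 1 being Col4a2 without Oct4-GFP SNEL#1, and 0 in the other comparisons. The median of the fibrillar genes moved past the spread between lines in poor against ESC lines (-0.28 with the second arrays alone, -0.24 without the first array of KH2_OSKM) and in good against ESC lines (-0.11 with normexp, -0.16 with the value table). Leaving out lines gave medians of -0.50 to 0.33 in high against ESC lines, the highest without Nanog-GFP SNEL#2, and -0.26 to 0.30 in good and high against poor lines, the highest without KH2_OSKM. Without the first array of KH2_OSKM the median in good and high against poor lines was 0.23. Leaving out that array, and values within slide 3, were chosen after seeing the data. Within slide 3, where Oct4-GFP SNEL#1 is the 1 iPSC line, the fibrillar median was 0.24 in iPSC and in high against ESC lines, and the sign turned in iPSC against ESC lines for Col1a1 (0.32), Col1a2 (0.07), Col3a1 (0.37) and Col6a1 (0.20). The sign turned for Col4a1 in iPSC against ESC lines within slide 1 (-0.02), and for Col1a1 in SNEL against OSKM lines within slide 2 (-1.46), without Nanog-GFP OSKM#2 (-0.39) and without Oct4-GFP SNEL#1 (-1.40), in a range of -1.40 to 1.94 over the lines left out; the cause was not tested. Genes near background, such as Col11a1 and Col12a1, have less certain differences than the brighter ones.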
